A study of Homo sapiens with 9 samples.

Results

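Accessible chromatin was examined at 9 genes that the literature on carcinoma has reported as silenced by EZH2: SLIT2, FOXC1, KLF2, RUNX3, DAB2IP, PEBP1, TIMP2, TIMP3 and VASH1. They were chosen by name from those reports, by a rule that uses no value of these libraries, although earlier results of these data were known when the list was made. The 9 genes were read beside all 20033 protein-coding genes with a canonical transcription start site (TSS) in GENCODE v44. The assay was ATAC-seq, which reads out where the Tn5 transposase can cut, and the cells were MDA-MB-231, an established human triple-negative breast cancer line. There were 2 libraries each of cells carrying shCtrl, a control shRNA, shEZH2 and shE2F1, and 1 library each of cells carrying shSUZ12, of cells labelled DMSO and of cells given GSK126, an inhibitor of the EZH2 methyltransferase. Cells with an shRNA were exposed to lentivirus for 24 h and then kept in puromycin at 2 μg/ml for 72 h. The DMSO library, whose treatment label reads WT, was the control of GSK126, and the shCtrl libraries were the control of every knockdown, so the knockdown comparisons share them. The labels do not say whether replicates came from separate cultures, and a p-value therefore measures only the spread between these libraries, which may be technical.

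EZH2 is the catalytic subunit of Polycomb repressive complex 2 and places methyl groups on lysine 27 of histone H3, a mark of repressed genes, and SUZ12 is a core subunit of the same complex. Genes silenced in this way typically have CpG-rich promoters, and in carcinoma the reported ones include inhibitors of migration, invasion, Ras signalling and angiogenesis. E2F1 is a transcription factor of cell cycle genes. An ATAC-seq peak marks DNA that the transposase could reach and is not a measure of transcription or of H3K27 methylation. Knockdown of EZH2, SUZ12 or E2F1 cannot be checked from peak lists.

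Each list held 58626 to 85812 peaks, and the background level recovered from them, which scales with depth, ran from 1.41 tags in shEZH2 replicate 2 to 2.18 tags in shE2F1 replicate 2. The shallower libraries were shEZH2 replicate 2, GSK126 and shE2F1 replicate 1, at 0.788, 0.816 and 0.838 of the depth of shCtrl replicate 1. All 6 markers of mesenchymal breast cancer lines, among them VIM and ZEB1, had a promoter peak in all 9 libraries. So did 2 of 6 luminal markers and 60.0% of all promoters. GATA3, a luminal factor, had none in any library. The luminal markers ESR1, PGR and FOXA1 had a promoter peak in 8, 7 and 7 of 9 libraries, so a peak at a promoter does not by itself separate the lineages.

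The promoters of 8 of the 9 genes can be followed by sequence. RefSeq promoter sequence on GRCh38.p14, from 250 bases before to 50 bases after the TSS, was matched for all members but TIMP2, and for 14586 of all genes. The 8 promoters were CpG-rich, with 30 CpG in PEBP1 to 49 in KLF2 and a GC content of 68.0% to 80.7%. The GC box, GGGCGG on either strand, lay in all 8, from 1 match in DAB2IP to 6 in KLF2, while 62.6% of all matched promoters held it. The E2F letters TTTCCCGC, TTTCGCGC, TTTGCCGC or TTTGGCGC, on either strand, were in none of the 8 windows and in 4.59% of all promoters. The AP-1 letters TGACTCA or TGAGTCA were also in none of the 8, and in 3.50% of all promoters. These are matches of letters and not sites of binding. For the contrast the data turn on, RUNX3, without a promoter peak in any library, is printed beside KLF2, SLIT2 and PEBP1, whose peak summits fell within the printed stretch in all 9 libraries. Each is the 200 bases before the canonical TSS on the strand of the gene, 5′ to 3′, with the GC box in capitals on either strand. RUNX3 lies at chr1:24930277-24930476 on the minus strand, KLF2 at chr19:16324626-16324825, SLIT2 at chr4:20251705-20251904 and PEBP1 at chr12:118135924-118136123, all on the plus strand.
RUNX3: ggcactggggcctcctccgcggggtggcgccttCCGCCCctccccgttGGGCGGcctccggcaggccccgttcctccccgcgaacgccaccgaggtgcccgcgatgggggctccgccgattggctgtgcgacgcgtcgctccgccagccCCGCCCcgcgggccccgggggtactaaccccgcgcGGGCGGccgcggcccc
KLF2: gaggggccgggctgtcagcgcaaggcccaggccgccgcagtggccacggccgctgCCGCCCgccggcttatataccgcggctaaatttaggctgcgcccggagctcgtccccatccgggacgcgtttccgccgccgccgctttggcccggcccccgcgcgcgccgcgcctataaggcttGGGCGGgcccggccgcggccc
SLIT2: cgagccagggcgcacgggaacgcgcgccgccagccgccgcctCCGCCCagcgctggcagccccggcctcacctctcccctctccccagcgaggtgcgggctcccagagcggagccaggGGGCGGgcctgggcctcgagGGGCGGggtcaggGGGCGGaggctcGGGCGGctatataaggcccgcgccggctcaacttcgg
PEBP1: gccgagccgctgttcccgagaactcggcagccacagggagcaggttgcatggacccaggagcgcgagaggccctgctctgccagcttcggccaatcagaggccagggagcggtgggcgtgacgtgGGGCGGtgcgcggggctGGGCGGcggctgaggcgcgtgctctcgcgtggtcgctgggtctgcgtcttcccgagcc
RUNX3 had 38 CpG in its 300-base window, more than 85.1% of promoters, and 4 GC boxes, between the 2 of PEBP1 and the 5 and 6 of SLIT2 and KLF2. Of the 2176 promoters with at least as many CpG, 8.87% had no peak in any library and 80.3% had one in all 9. Of promoters with fewer CpG, 30.4% had no peak.

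At baseline, which means both shCtrl libraries and DMSO, 8 of the 9 genes had a peak within 1 kb of the canonical TSS in every library. Across all genes the share was 64.2%. In all 9 libraries a promoter peak was found at 6 of the 9, namely SLIT2, FOXC1, KLF2, PEBP1, TIMP3 and VASH1, against 60.0% of all promoters. RUNX3 was the member without a promoter peak in any library, as were 29.1% of all promoters. The map of peaks around the 9 start sites shows where they lay.

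**Figure D1:**
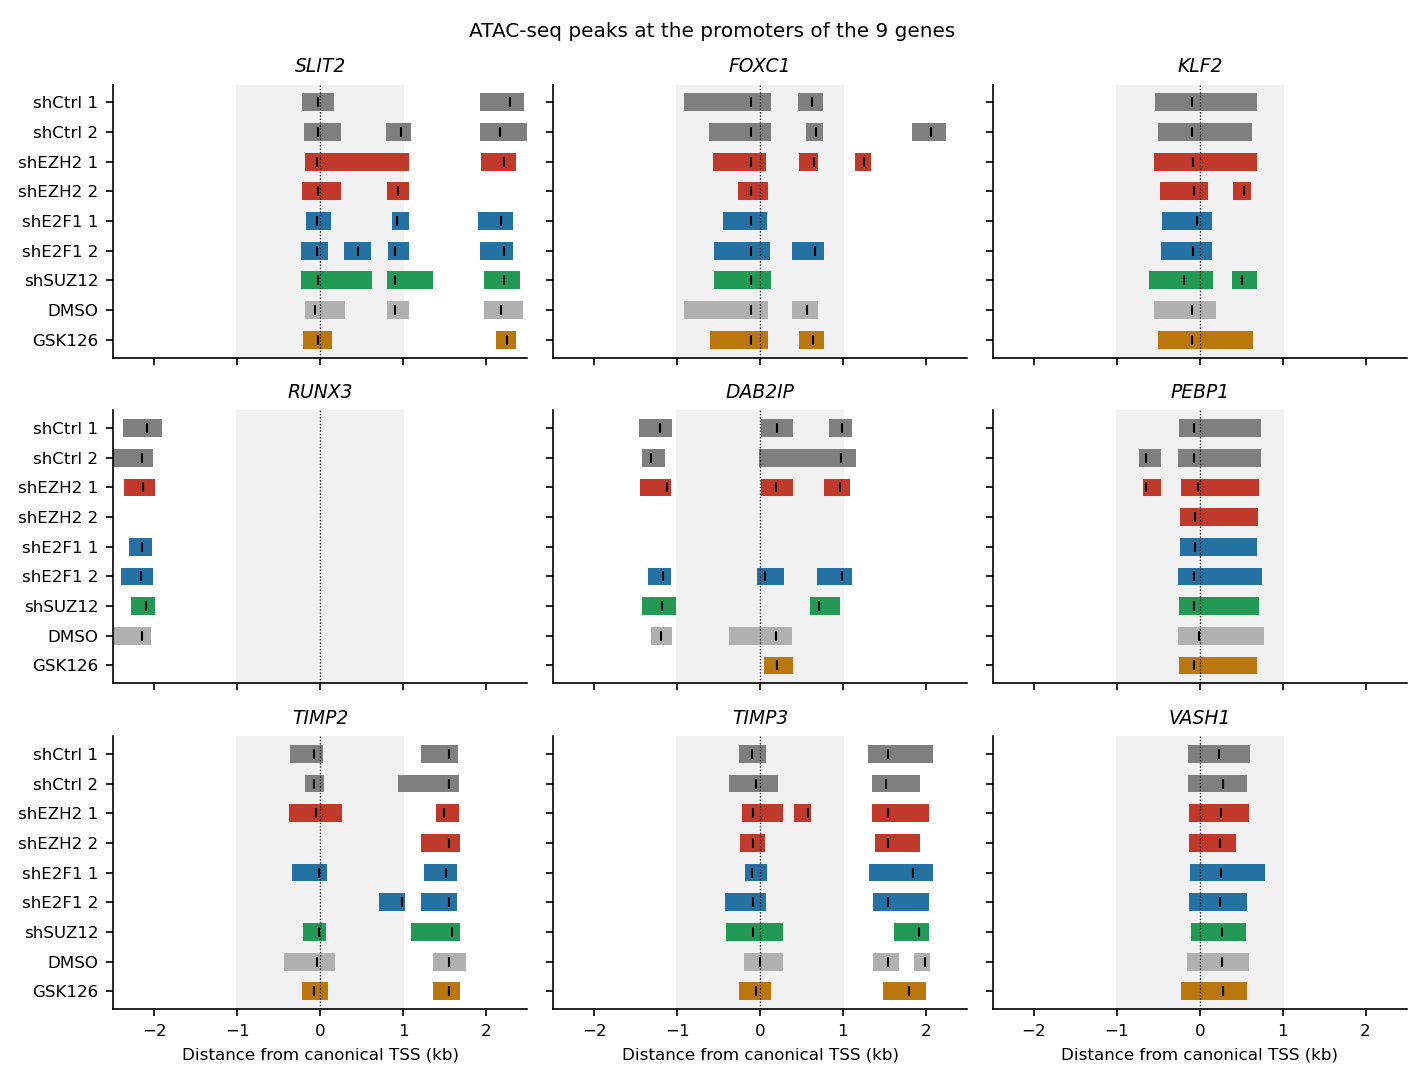
Peaks of the 9 libraries around the canonical TSS of each gene, drawn in the direction of transcription, with distance from the TSS in kb on the x axis and 1 row per library. Bars are peaks, ticks are summits and the grey band is the 1 kb window on either side. RUNX3 has no bar inside the band, and the bars of DAB2IP and TIMP2 are missing there in 2 libraries and 1 library.

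The open promoters differed widely in strength. Strength was read as the fold enrichment of the strongest peak in the window over its local background, as given in the lists. Because the median of this ratio over promoters with a peak in all 9 libraries ranged from 8.79 in shE2F1 replicate 1 to 11.6 in shSUZ12 and GSK126, it was also expressed as a promoter rank: the percentage of those 12026 promoters with a lower fold enrichment in the same library. Of the 8 members open at baseline, 5 ranked under 25 in every baseline library, against 22.9% of promoters open there. The limit of 25 was set after the values were seen. These 5 were SLIT2, FOXC1, DAB2IP, TIMP2 and TIMP3.

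SLIT2 encodes a secreted ligand of the ROBO receptors that guides axons and restrains cell migration. Its fold enrichment was 5.59 and 4.74 in shCtrl, 4.11 and 5.94 in shEZH2, 5.41 and 6.63 in shE2F1, 6.67 in shSUZ12, 5.32 in DMSO and 6.87 in GSK126. All 9 peaks covered the TSS, with summits 29 to 63 bases upstream, and every value was below the median promoter of its library. Of the 8 other annotated start sites of SLIT2, the 4 that lie 1.35 to 1.91 kb downstream had a peak within 1 kb in all 9 libraries, and the 3 that lie 291 to 346 kb downstream had none in any.

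FOXC1, a forkhead transcription factor of mesenchymal development, had 1 exon, and its peak summit stood 104 to 110 bases upstream of the TSS in all 9 libraries. The fold enrichment was 5.05 and 7.85 in shCtrl, 6.08 and 6.52 in shEZH2, 7.59 and 6.83 in shE2F1, 8.26 in shSUZ12, 6.40 in DMSO and 6.61 in GSK126. The lowest and the second highest of the 9 values were the 2 shCtrl replicates, so the control spread covered most of the range.

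KLF2, a Krüppel-like transcription factor known for endothelial and lymphocyte quiescence, had a fold enrichment of 7.99 and 8.01 in shCtrl, 9.03 and 7.01 in shEZH2, 8.55 and 7.68 in shE2F1, 10.4 in shSUZ12, 10.5 in DMSO and 11.1 in GSK126. The DMSO, GSK126 and shSUZ12 libraries, which also had the highest library medians, were above the other 6. By rank, KLF2 stood between 22.9 and 47.3.

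RUNX3, a RUNX family transcription factor and a mediator of TGF-β signalling, had no peak within 1 kb of its canonical TSS nor within 1 kb of its other start site, 34.7 kb upstream, in any of the 9 libraries. The nearest region lay 2.44 kb upstream at chr1:24932191-24933233, in an intron of the longer transcript. There the peaks had a fold enrichment of 6.69 and 8.82 in shCtrl, 6.59 in shEZH2 replicate 1, 7.25 and 5.74 in shE2F1, 5.09 in shSUZ12 and 6.10 in DMSO, with none in shEZH2 replicate 2 or GSK126. The locus was therefore not closed throughout, and 4 of its 15 regions had a peak in all 9 libraries, 3 of them inside the gene.

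DAB2IP encodes a Ras GTPase-activating protein. Its promoter was among the weakest of the open ones, with a fold enrichment of 4.61 and 4.27 in shCtrl, 4.50 in shEZH2 replicate 1, 3.86 in shE2F1 replicate 2, 2.88 in shSUZ12, 3.94 in DMSO and 5.51 in GSK126. There was no peak in shEZH2 replicate 2 or shE2F1 replicate 1, which are 2 of the 3 shallower libraries. The strongest peak did not stay in place: its summit lay 978 and 987 bases downstream in shCtrl, 707 bases in shSUZ12 and 64 to 207 bases in the other 4, and it covered the TSS in only 3 libraries.

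Scaled down to the depth of the 2 libraries without a DAB2IP promoter peak, the baseline summits would have had a −log10 p of 7.99 to 12.1, and the lowest values in those lists were 4.03 and 3.96. The part of depth in the missing peaks was not tested. Of the 6 other annotated start sites of the gene, the one 84.6 kb upstream had no peak in any library, and the other 5 had one in all 9. The fold enrichment was 4.74 to 7.58 at the site 53.4 kb upstream and 4.98 to 8.56 at the site 48.9 kb downstream. The 3 that lie 85.5, 91.2 and 91.9 kb downstream had a fold enrichment of 7.44 to 11.0 at the 85.5 kb site and 6.67 to 11.4 at the other two, which share their peak.

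PEBP1 encodes a phosphatidylethanolamine-binding protein known as a suppressor of metastasis and had the strongest promoter of the 9 genes. Its fold enrichment was 10.9 and 12.7 in shCtrl, 11.0 and 12.5 in shEZH2, 10.5 and 13.6 in shE2F1, 13.7 in shSUZ12, 12.9 in DMSO and 14.2 in GSK126. The peaks covered 937 to 1278 bases of the window and the TSS in all 9 libraries, and every value was above the median promoter of its library.

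TIMP2 and TIMP3 encode tissue inhibitors of metalloproteinases, which block the enzymes that degrade extracellular matrix. A TIMP2 peak over the TSS had a fold enrichment of 3.74 and 4.39 in shCtrl, 4.28 in shEZH2 replicate 1, 4.29 in shE2F1 replicate 1, 5.40 in shSUZ12, 5.79 in DMSO and 5.29 in GSK126. It was absent from shEZH2 replicate 2, which had no peak in the window, and from shE2F1 replicate 2, the deepest library, whose peak of 2.93 lay 989 bases downstream. Scaled to the depth of shEZH2 replicate 2, the summits at the TSS in shCtrl replicate 1 and DMSO would have had a −log10 p of 9.35 and 21.6. The lowest value in that list was 4.03, and the part of depth in the missing peak was not tested. A second region, centred 1.23 kb downstream at chr17:78923633-78924682 in the first intron, had a peak in all 9 libraries, and in shCtrl replicate 2 its peak of 4.97 reached into the window and set the value used for the rank.

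TIMP3 had a promoter peak in every library, with a fold enrichment of 5.60 and 6.62 in shCtrl, 5.20 and 5.93 in shEZH2, 4.02 and 6.77 in shE2F1, 5.90 in shSUZ12, 6.74 in DMSO and 7.10 in GSK126. Its peak covered the TSS in all 9 libraries. TIMP3 lies within an intron of SYN3, so its surroundings are also the gene body of SYN3.

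VASH1, vasohibin 1, is an angiogenesis inhibitor that acts as a tubulin carboxypeptidase. Its fold enrichment was 10.4 and 7.97 in shCtrl, 9.54 and 5.21 in shEZH2, 9.96 and 10.0 in shE2F1, 6.55 in shSUZ12, 11.9 in DMSO and 9.07 in GSK126. The summit lay downstream of the TSS, at 233 to 278 bases, in all 9 libraries, unlike the summits of SLIT2, FOXC1, KLF2 and PEBP1. The plot of fold enrichment by library shows that VASH1 had the widest spread of the 9 genes in these ratios.

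**Figure D2:**
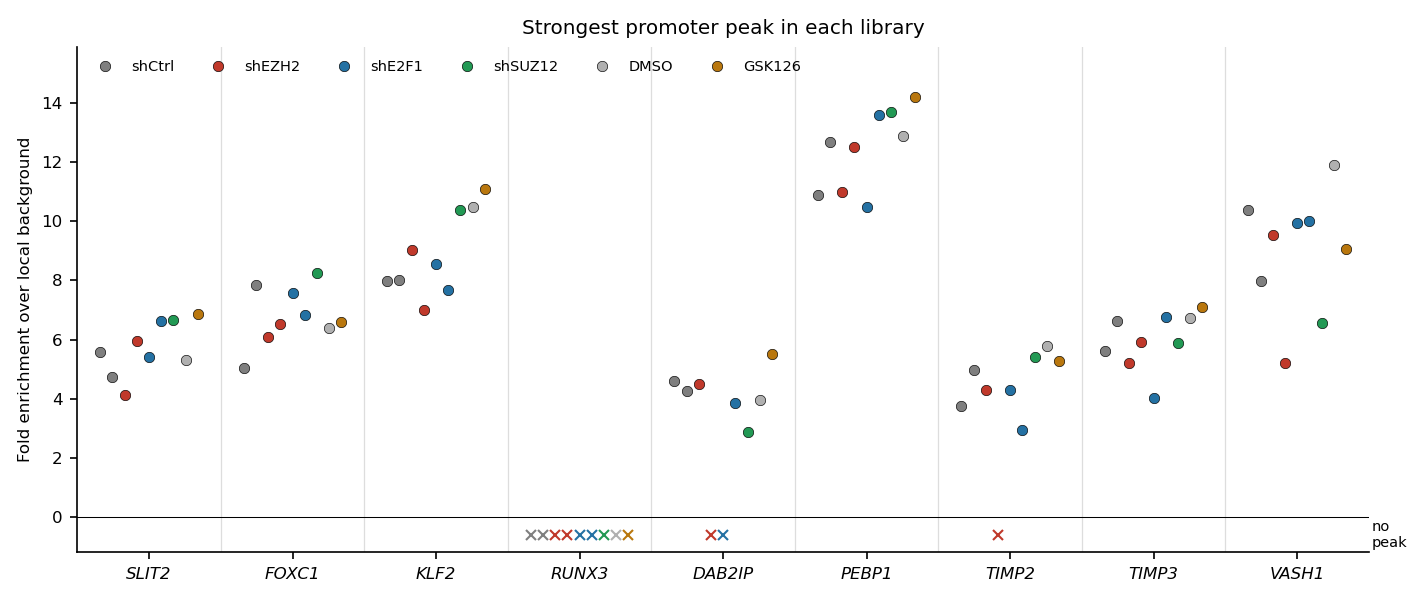
Fold enrichment over local background of the strongest peak within 1 kb of the canonical TSS, a ratio without unit, for each gene and library, with 1 point per library in the order shCtrl, shEZH2, shE2F1, shSUZ12, DMSO and GSK126 and a cross where there was no peak. PEBP1 has values from 10.5 to 14.2, DAB2IP from 2.88 to 5.51, and RUNX3 only crosses.

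Whether a promoter opened or closed was asked first by presence of a peak: gained with a peak in every treated and no control library, lost with the reverse. None of the 9 promoters was gained or lost in any of the 4 comparisons. Over all promoters, 0.0749% were gained and 0.993% lost with shEZH2, 0.195% and 0.589% with shE2F1, 0.859% and 0.759% with shSUZ12, and 0.854% and 1.88% with GSK126. RUNX3 stayed without a promoter peak under every perturbation. DAB2IP and TIMP2 each had a promoter peak in shEZH2 replicate 1 and none in shEZH2 replicate 2, so 2 losses were called without replicate 1 and 0 without replicate 2. Without shE2F1 replicate 2, DAB2IP was the 1 promoter lost with shE2F1.

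Promoter ranks were compared next. A promoter was called higher or lower where the libraries of the 2 groups did not overlap, and for GSK126 against DMSO, with 1 library each, where the rank differed by at least 10 points. With 2 libraries against 2, an exact permutation test cannot give a p below 0.333, and with 1 library there is no replicate check. Replicates of shCtrl, shEZH2 and shE2F1 differed by a median of 6.23, 8.15 and 8.04 rank points over the common promoters.

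With shEZH2, 1 of the 6 members with a peak in all 4 libraries was called higher and none lower, against 20.9% and 17.4% of all promoters. The gene was PEBP1, which ranked at 68.1 and 83.6 in shEZH2 and at 56.9 and 63.6 in shCtrl, a mean of 75.8 ± 10.9 against 60.3 ± 4.74 (SD, n = 2 each, exact permutation p = 0.333, two-sided). Its fold enrichment itself overlapped between the groups, and its percentile within the whole peak list, 85.8 and 92.8 against 81.3 and 86.0, did so too, so the call rests on the comparison with other promoters.

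The other 5 overlapped. SLIT2 ranked at 2.34 and 16.0 in shEZH2 against 7.93 and 2.98 in shCtrl, and KLF2 at 45.8 and 26.8 against 27.3 and 22.9. FOXC1 and TIMP3 had mean differences of 4.73 and 1.71 rank points with exact permutation p of 0.667 and 1.00. VASH1 ranked at 51.5 and 9.82 in shEZH2 and at 51.4 and 22.6 in shCtrl, so that 1 replicate stood beside the higher control and the other below both. The median difference of the 6 members was 4.23 points, against 0.492 over all promoters, a value near 0 because ranks are relative to other promoters. The absolute difference over all promoters had a median of 5.75 points. Leaving out a library sets 1 library against 2 and can only add calls. The same rule called 34.3% of all promoters higher and 33.7% lower with shSUZ12, and the shares for the counts that follow were not computed. Without shEZH2 replicate 1, 4 members (FOXC1, PEBP1, SLIT2 and TIMP3) were higher and 1 (VASH1) lower. Without shEZH2 replicate 2, 4 (DAB2IP, KLF2, PEBP1 and VASH1) were higher and 2 (SLIT2 and TIMP3) lower. Without shCtrl replicate 1 or 2, PEBP1 was joined by KLF2 or FOXC1. PEBP1 was called in every case, because a call made with all 4 libraries cannot be undone by leaving 1 out.

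With shE2F1, 2 of 7 members were called higher and none lower, against 19.2% and 18.1% of all promoters. PEBP1 ranked at 69.0 and 83.5 in shE2F1, a mean of 76.3 ± 10.2 against 60.3 ± 4.74 in shCtrl (SD, n = 2 each, exact permutation p = 0.333). SLIT2 ranked at 11.3 and 16.8 against 7.93 and 2.98, a mean of 14.0 ± 3.87 against 5.45 ± 3.50 (SD, n = 2 each, exact permutation p = 0.333). Both calls were lost when promoters were ranked by −log10 p in place of fold enrichment, the SLIT2 call was also lost by percentile within the whole list (31.0 and 51.1 in shE2F1 against 32.9 and 19.5 in shCtrl), and the fold enrichments of both genes overlapped between the groups.

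VASH1 had the largest mean difference with shE2F1 among the 7, 19.5 points, and was not called because shCtrl replicate 1 at 51.4 lay above shE2F1 replicate 2 at 49.6. KLF2 and FOXC1 differed by 11.6 and 13.5 points with overlapping libraries, while TIMP2 and TIMP3 differed by less than 1 point. The median difference was 11.6 points for the 7 members and 0.169 for all promoters, whose absolute difference had a median of 5.45. Leaving out 1 of the 4 libraries cannot undo a call, so PEBP1 and SLIT2 stayed higher each time. In all, 4 members were higher and 1 (TIMP2) lower without shCtrl replicate 1, and 3 and 0 without shCtrl replicate 2. Without shE2F1 replicate 1, 3 were higher and 2 (DAB2IP and TIMP2) lower, and without shE2F1 replicate 2, 5 and 1 (TIMP3). The shares of all promoters for these counts were not computed.

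With shSUZ12, a single library was set against 2, and 5 of 8 members were called higher and 3 lower where 34.3% and 33.7% of all promoters were. FOXC1, KLF2, SLIT2, TIMP2 and PEBP1 were the higher ones and DAB2IP, TIMP3 and VASH1 the lower ones. VASH1 showed the largest difference of the 8, with a rank of 10.8 in shSUZ12 against 51.4 and 22.6 in shCtrl. KLF2 ranked at 39.9 against 27.3 and 22.9, and SLIT2 at 11.5 against 7.93 and 2.98. SLIT2, TIMP2, DAB2IP and TIMP3 differed from the shCtrl mean by 6.03, 2.66, -2.34 and -2.98 points, less than the median difference between the shCtrl replicates. The median difference was 4.35 points for the 8 members, and the absolute difference over all promoters had a median of 5.45.

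With GSK126, 1 of 8 members was called higher and 1 lower against DMSO, with 15.0% and 14.5% of all promoters called. The median difference was 3.39 points for the 8 members, and the absolute difference over all promoters had a median of 5.76. PEBP1 ranked at 72.8 against 62.7, a difference of 10.1 that only just met the limit of 10 points. It was not called within 2 kb of the TSS or by percentile within the whole list, and by rank of −log10 p the direction turned, with 54.8 in GSK126 against 56.7 in DMSO. VASH1 ranked at 27.9 against 53.2, lower by more than the 18.5 points within which 90% of promoters differed between the shCtrl replicates, and was also called at a limit of 20 points. The VASH1 ranks of the shCtrl replicates themselves, 51.4 and 22.6, lay further apart than those of GSK126 and DMSO. So did those of the shEZH2 replicates, 51.5 and 9.82. Against the shCtrl libraries in place of DMSO, VASH1 in GSK126 lay between the 2 controls, at 51.4 and 22.6, and was not called. There 6 members, including KLF2, SLIT2 and PEBP1, were called higher, by lack of overlap and without the limit of 10 points. TIMP2 was among them at 4.30 against 0.773 and 3.87. The same rule, 1 library against 2, called 34.3% of all promoters higher with shSUZ12, and the share for GSK126 was not computed.

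PEBP1 was thus the member whose rank in all 6 treated libraries, from 68.1 to 83.6, was above all 3 control libraries, from 56.9 to 63.6. Of the 12026 common promoters, 1.43% had this order and 1.13% the reverse. The order pools 4 perturbations and 2 kinds of control and was not a planned comparison. PEBP1 was picked from the 9 genes for it, so the share does not test PEBP1. SLIT2 had 5 of 6 treated libraries above all 3 controls by rank. By fold enrichment over the median of the library the order of PEBP1 was the same, 1.17 to 1.37 in treated and 1.07 to 1.13 in control libraries. By percentile within the whole list 5 of 6, and by rank of −log10 p 4 of 6, treated libraries of PEBP1 were above every control. VASH1 was low in shEZH2 replicate 2 and shSUZ12, at 9.82 and 10.8, and stood at 63.5 and 49.6 in shE2F1, of which only the first was above all 3 control libraries. The plot of ranks by library places these values side by side.

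**Figure D3:**
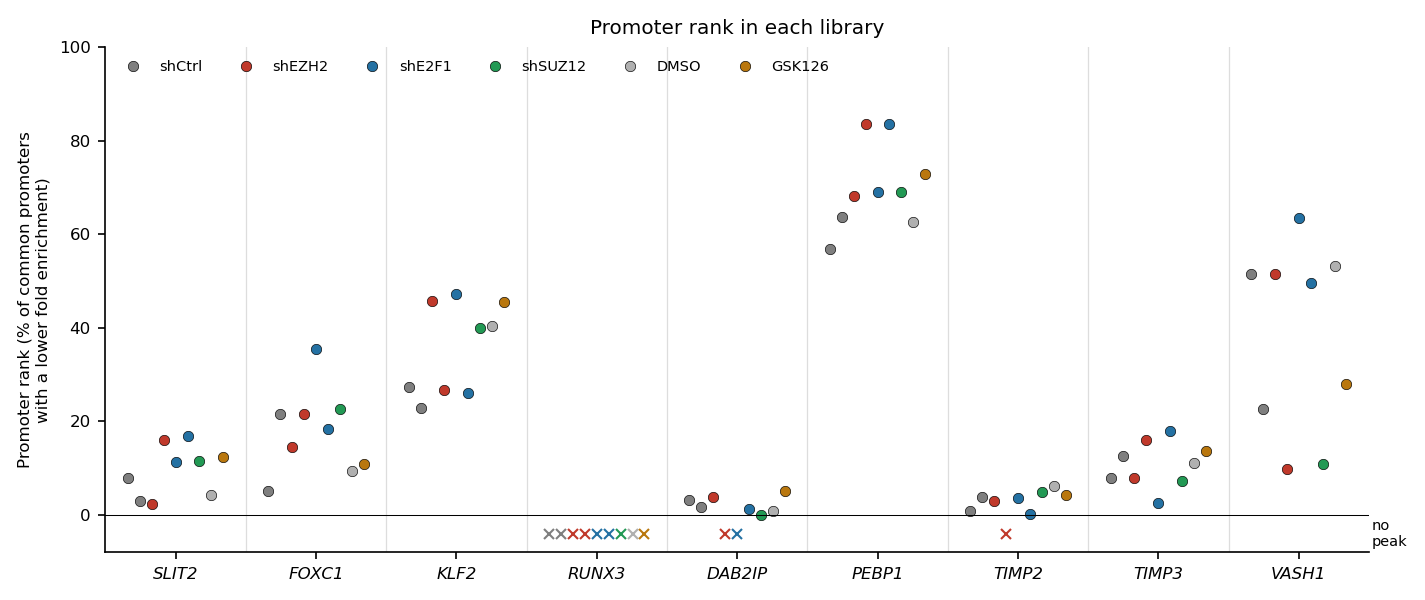
Promoter rank, the percentage of common promoters with a lower fold enrichment in the same library, for each gene and library, with 1 point per library coloured by group and a cross where there was no peak. In PEBP1 the 3 control libraries lie at 56.9 to 63.6 and the 6 treated ones at 68.1 to 83.6, while in VASH1 the values of control and treated libraries overlap.

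Beyond the promoters, the gene bodies and the 50 kb on either side held 161 merged peak regions in all. Of these, 51 had a peak in all 9 libraries, which is 31.7% against 34.2% of all 118719 regions. The number ran from 8 at VASH1, a gene of 21.5 kb, to 43 at DAB2IP, a gene of 218 kb, while SLIT2, at 369 kb the longest, held 18. In the promoter windows lay 12 regions, in the gene bodies 73 and in the flanks 76.

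KLF2 had the largest share of regions in all 9 libraries, 7 of 16, and 6 of the 7 lay in its flanks. The strongest of these, 45.4 kb upstream at chr19:16278968-16279936, ranked between the percentiles 84.0 and 98.4 of its peak lists. Within SLIT2, an intronic region 269 kb downstream of the TSS at chr4:20520884-20521419 stood at percentiles 73.0 to 98.7, while the SLIT2 promoter stood at 11.9 to 51.1 in the same lists. Upstream of DAB2IP, the region at chr9:121545314-121546416 stood at 86.8 to 95.8, whereas the DAB2IP promoter stood at 1.53 to 22.0 where it had a peak.

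**Figure D4:**
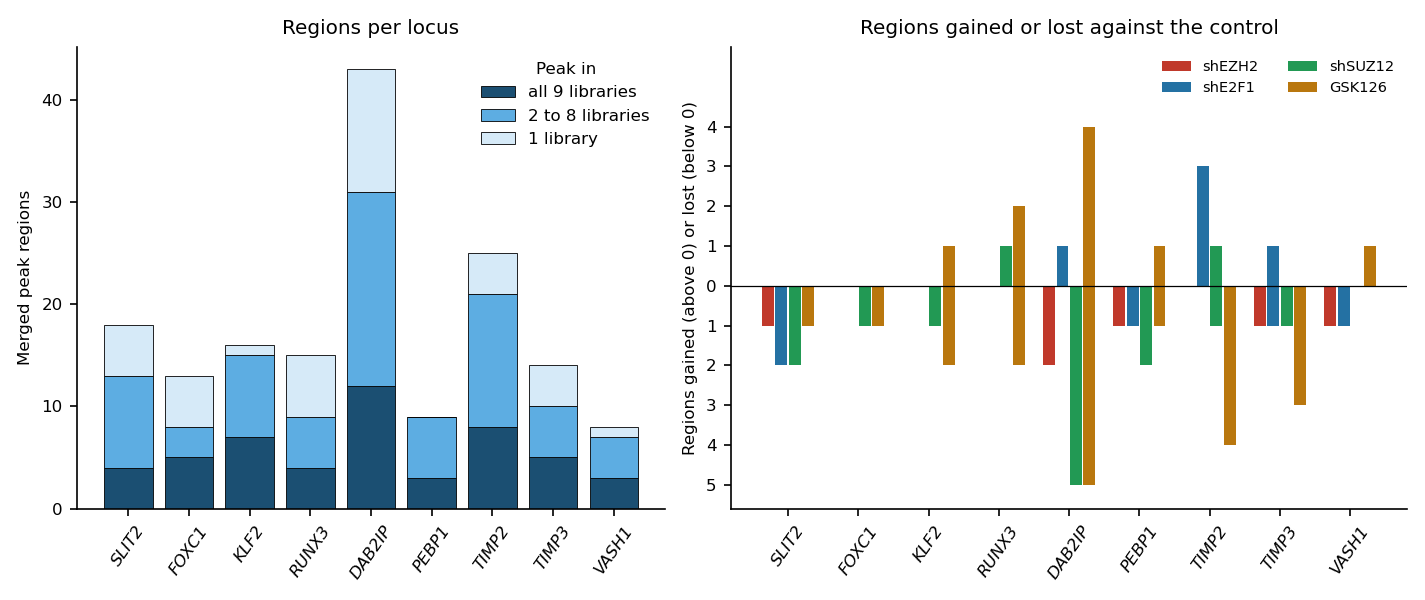
Left, merged peak regions in the promoter window, gene body and 50 kb flanks of each gene, as counts split by the number of libraries with a peak. Right, the counts of those regions gained, drawn above 0, or lost, drawn below 0, in each comparison. DAB2IP holds the most regions, 43, and 5 of them were lost with shSUZ12 and 5 with GSK126.

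In the 9 loci, shEZH2 gained none of the 161 regions and lost 6, or 3.73%. Over all regions, 0.727% were gained and 5.87% lost. The lost region with the highest percentiles lay near PEBP1 at chr12:118115751-118116214, in an intron of VSIG10 and 12.0 kb from its TSS. It stood at percentiles 78.6 and 75.4 in shCtrl, 82.4 and 75.4 in shE2F1, 22.0 in shSUZ12, 76.8 in DMSO and 63.8 in GSK126, with no peak in either shEZH2 library. It was thus present in every library but those of shEZH2. The next were an intronic region of SYN3, 49.1 kb from the TIMP3 TSS at chr22:32752429-32752705, with percentiles of 32.1 and 33.5 in shCtrl, and an intronic region of SLIT2 at chr4:20422505-20422781, with 28.8 and 36.3. Both of these were also without a peak in shSUZ12 and in shE2F1 replicate 1, and the SYN3 region had none in DMSO or GSK126 either. Leaving out a library loosens this rule too, and can only add regions. In that way 23 regions were lost and 2 gained without shEZH2 replicate 1, and 9 and 13 without shEZH2 replicate 2. The counts were 20 and 0 without shCtrl replicate 1, and 17 and 1 without shCtrl replicate 2. The shares of all regions were not computed for these counts, nor for those that follow for shE2F1 and shSUZ12 without a library.

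With shE2F1, 5 regions were gained and 5 lost, each 3.11%, against 2.56% and 3.36% of all regions. The lost region with the highest percentiles was in an intron of SLIT2 at chr4:20532943-20533522. It stood at 55.9 and 78.3 in shCtrl, 78.8 and 73.1 in shEZH2, 86.6 in shSUZ12 and 50.9 in DMSO, and had no peak in either shE2F1 library or in GSK126. An intronic region of SYN3 at chr22:32753157-32753564, 48.3 kb from the TIMP3 TSS, showed the same presence and absence, with percentiles of 11.6 to 57.0 where it had a peak. The third was in an exon of LRRC74A, in the flank of VASH1 at chr14:76827937-76828295, with 22.1 and 24.5 in shCtrl and no peak in either shEZH2 library or in the DMSO control.

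Of the 5 regions gained with shE2F1, 3 lay in the TIMP2 locus. The strongest, in an intron of USP36 at chr17:78808220-78808491, stood at 37.5 and 34.6 in shE2F1 and had a peak in DMSO as well, at 27.0. A region of the SYN3 intron at chr22:32897444-32897761 stood at 48.2 and 27.4, and an intronic region of TIMP2 at chr17:78911631-78911895 at 44.2 and 19.4. The latter had a peak in no other library. Regions lost numbered 16 without shCtrl replicate 1, 14 without shCtrl replicate 2, 8 without shE2F1 replicate 1 and 25 without shE2F1 replicate 2, and regions gained 6, 8, 14 and 11.

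With shSUZ12, 2 regions were gained and 13 lost, or 1.24% and 8.07%, against 5.35% and 6.86% of all regions. The gained ones were intronic, in TIMP2 at chr17:78856465-78856717 and in RUNX3 at chr1:24914981-24915180, with percentiles of 27.5 and 4.29 in shSUZ12. Of the lost ones, 5 were in the DAB2IP locus and 1 was in the FOXC1 promoter window, at chr6:1610295-1610687 in the FOXC1 exon, with percentiles of 1.81 and 1.29 in shCtrl, while the FOXC1 peak over the TSS was present. The lost regions with the highest percentiles were in an intron of USP36 in the TIMP2 flank at chr17:78828403-78828797, at 63.0 and 70.0 in shCtrl, and in an intron of DAB2IP at chr9:121621072-121621499, at 49.5 and 64.9, followed by the SYN3 intronic region lost with shEZH2. Without shCtrl replicate 1, 28 regions were lost and 4 gained, and without shCtrl replicate 2, 24 and 8.

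With GSK126, 9 regions were gained and 19 lost, or 5.59% and 11.8%, against 5.67% and 11.2% of all regions. The lost region with the highest percentile was the SLIT2 intronic region lost with shE2F1, at 50.9 in DMSO. The RUNX3 region 2.44 kb upstream of the canonical TSS was the next, at 35.2 in DMSO, and a DAB2IP intronic region at chr9:121650179-121650619, 1.24 kb upstream of the canonical TSS, was the third, at 33.7. Both were also without a peak in shEZH2 replicate 2. The gained regions with the highest percentiles were 26.8 kb downstream of the KLF2 TSS at chr19:16351459-16351761, in an intron of TAOK3 in the PEBP1 flank at chr12:118181637-118182083, and in the LRRC74A exon near VASH1, at 52.8, 41.5 and 33.3 in GSK126. All 3 had a peak in at least 1 shCtrl library, and none of the 161 regions was gained against shCtrl.

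The pathways around the 9 genes were read from a list of 24 family members and partners: RAS GTPase-activating proteins, RUNX, KLF and FOXC relatives, SLIT proteins and their ROBO receptors, TIMP relatives and the metalloproteinases they inhibit, signalling partners of PEBP1, and partners of vasohibin. At baseline 16 of the 24 had a promoter peak in every library (64.2% of all promoters) and 15 in all 9 (60.0%), and 6 had none in any library (29.1%), among them SLIT1, SLIT3, RASAL1, MMP2 and FOXC2. Among the paralogues, SLIT2 was thus the SLIT gene with an open promoter, and RUNX3 the RUNX gene without any promoter peak, since RUNX1 had one in 9 libraries and RUNX2 in 6.

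None of the 24 promoters was gained or lost with shEZH2, shE2F1 or shSUZ12. With GSK126, RUNX2 was gained, at a fold enrichment of 6.90, and ROBO1, a receptor of SLIT2, was lost, from 5.38 in DMSO. RUNX2 had a peak in shCtrl replicate 2 as well, and ROBO1 had one in only 1 other library, shCtrl replicate 1, so both varied between control libraries. By rank, 2 of 16 were higher and 1 lower with shEZH2, 2 and 2 of 15 with shE2F1, 6 and 4 of 16 with shSUZ12, and 1 and 1 of 16 with GSK126. The shares higher and lower over all promoters were 20.9% and 17.4%, 19.2% and 18.1%, 34.3% and 33.7%, and 15.0% and 14.5%.

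A second list held 7 other genes reported as EZH2 targets, among them CDH1, CDKN1C, BMPR1B, CXXC4, NKD1 and FOSB. At baseline 5 of the 7 had a promoter peak in every library (64.2% of all promoters), and each had one in at least 4 of the 9. CXXC4 and NKD1, inhibitors of Wnt signalling, were lost with shE2F1, as were 0.589% of all promoters, from a fold enrichment of 3.66 and 4.51 and of 3.94 and 4.49 in shCtrl. CXXC4 was also lost with shSUZ12 and gained with GSK126, at 4.26. Neither gene had a peak in DMSO, so both promoters also differed between the 2 kinds of control. None of the 7 was gained or lost with shEZH2, and by rank 3 of 6 were higher and 1 lower, against 20.9% and 17.4% of all promoters. With shSUZ12 the order turned, with 1 of 6 higher and 4 lower, against 34.3% and 33.7%. With shE2F1, 2 of 4 were higher and 0 lower, against 19.2% and 18.1%. With GSK126, 0 of 5 were higher and 0 lower, against 15.0% and 14.5%.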

How the data were processed

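Groups follow the labels, and the genes and lists were chosen with earlier results of these data known. The authors aligned the ATAC-seq reads to GRCh38 with Bowtie2, corrected positions for the offset of Tn5 and called peaks in each library separately, with a peak caller not given in the sources used here. Each deposited list gives a score, a fold enrichment (a ratio to local background), the −log10 of p and of q, and a summit. No list reached below a −log10 q of 2.00. No read counts were used here.

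The strongest peak overlapping 1 kb on either side of the Ensembl canonical TSS (GENCODE v44) was taken for each of 20033 genes, and ranked by fold enrichment (mid-rank). Regions were merged at an overlap of 1 bp. Fold enrichment and −log10 p together fix the tags at a summit and its background, which gave the depth for 100% of peaks. The exact permutation test was two-sided. All 9 genes are named, with up to 3 gained and 3 lost regions per comparison by the lower percentile, and other genes where their promoter was gained or lost. Paralogues, partners, stronger regions and cell line markers beyond that rule were named after their values were seen. Alternatives were a −log10 q of at least 5, equal peak numbers, other windows and scalings, shCtrl as control of GSK126, a replicate block and leaving out each replicate. Leaving out baseline libraries or the shallowest library was chosen after seeing the data. On simulated data with 200 promoters planted as gained and 200 as lost with shEZH2, 200 of each were found. The planted peaks were removed from every library of a group and none was missing through depth, so this checks only the code. Python 3.11.15, numpy 2.4.6, pandas 2.3.3, scipy 1.17.1 and matplotlib 3.10.9 were used.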

Additional observations from a re-analysis of the deposited data

How the results depend on the processing

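Depth, the absence of read counts and 1 or 2 libraries per group limit these results. The count of members open at baseline was 8 under all other windows and without any baseline library, and 7 with equal peak numbers per library; 7 rather than 6 had a peak in all libraries without the shallowest. With a −log10 q of at least 5, DAB2IP was the 1 promoter lost with shSUZ12, 1 region was gained with shSUZ12 and 12 were lost with GSK126. With equal peak numbers, DAB2IP was the 1 promoter gained with GSK126, 1 region was gained with shEZH2 and 9 were lost with GSK126. Within 500 bp, DAB2IP was again the 1 lost with shSUZ12, and within 2 kb 0 were higher with GSK126. By percentile within the list, 0 members were higher with shEZH2, 3 (KLF2, PEBP1 and VASH1) with shE2F1, and 2 were higher and 2 lower with GSK126; by −log10 p, 0 were higher with shE2F1, and SLIT2 in place of PEBP1 with GSK126; at 20 points, 0 were higher with GSK126. With summit windows, 1 region was gained with shEZH2 and 5 with shSUZ12. Against shCtrl, without the limit of 10 points, 6 members were higher and 0 lower with GSK126, and 0 regions were gained and 12 lost. The cause of these changes was not tested. Division by the library median could not be given a limit in rank points, so it was not run for GSK126.

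Libraries with the same replicate number showed no strong shared shift. Replicate differences correlated across promoters, which are not independent, at 0.0394 between shCtrl and shEZH2 and 0.0329 between shCtrl and shE2F1. This cannot tell whether same-numbered libraries were made together, which the labels do not say. With the replicate block, 3 members (FOXC1, KLF2 and PEBP1) were higher with shEZH2 and 4 (KLF2, PEBP1, SLIT2 and VASH1) with shE2F1, and 0 were lower. This rule asks only that the rank moved the same way in both same-numbered pairs, so it allows overlap and can only add calls. The share of all promoters that met it was not computed.

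Without 1 replicate each, shEZH2 gave 2 to 4 higher members, 0 to 2 lower, 0 to 2 promoters lost, 0 to 13 regions gained and 9 to 23 lost, and shE2F1 gave 3 to 5 higher, 0 to 2 lower, 0 to 1 promoter lost, 6 to 14 regions gained and 8 to 25 lost. Without a shCtrl replicate, shSUZ12 gave 5 higher and 3 lower members, 4 to 8 regions gained and 24 to 28 lost. The shares of all promoters and of all regions were not computed for these counts. Leaving out a library loosens the rule, so it can add calls and cannot undo one. The calls of PEBP1 with shEZH2, shE2F1 and shSUZ12 and of SLIT2 with shE2F1 and shSUZ12 therefore had to stay. So did the 5 higher and 3 lower members with shSUZ12. The scalings above changed the calls of PEBP1 with shEZH2 and shE2F1 and that of SLIT2 with shE2F1. With shSUZ12, KLF2 was no longer higher by −log10 p, and TIMP3 no longer lower by −log10 p or by percentile within the list. Within 2 kb or at any annotated TSS, TIMP2 was no longer higher and DAB2IP no longer lower. DAB2IP was also not called lower by rank with a −log10 q of at least 5, with equal peak numbers or within 500 bp.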
